A study of Mus musculus with 4 samples.

Results

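Progenitor spermatogonia are the mitotic germ cells that have left the stem cell state but have not yet begun differentiation. In the mouse testis they come from stem spermatogonia that express the GDNF co-receptor gene Gfra1, and they are the cells in which retinoic acid, the active form of vitamin A, switches on Kit and Stra8 as differentiation starts. The transcription factor genes Neurog3 and Sox3 are the usual markers of this step. Described here are 7 genes: Neurog3, Sox3, Zbtb16, Glis3 and Taf4b, which encode transcription regulators, Upp1, which encodes an enzyme, and Nefm, which encodes a filament protein. They were picked by symbol out of a table of 43998 entries, with the mutant and control values of the table already known, so their own differences are a description and carry no test. Each of the 7 symbols occurred in an entry of its own.

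The libraries came from THY1-positive spermatogonia of C57BL/6 mice at postnatal day 4, taken from the testis with antibody-coated magnetic beads. There were 2 libraries of mutants, which carry a germ cell specific impairment of the response to retinoic acid, and 2 libraries of controls. The labels name neither the modified gene nor the driver that limits the change to germ cells, and give no further alleles for the controls. They do not say whether both libraries of a group stem from different animals. The table gives 1 RPKM value per gene and genotype, made from both libraries. RPKM is a read count divided by transcript length and by sequencing depth, so levels can be compared between genes. A combined value has no replicate spread, so the differences below stand without a replicate check and without p-values. Low values stepped in whole reads, which placed the depth near 57.3 M reads for mutant and 56.5 M reads for control (M for mega). The intervals below are 95% intervals of counting error at this depth and cover nothing else.

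Neurog3 and Sox3 had the largest relative differences of the 7 genes, and both were higher in the mutant. Neurog3 encodes neurogenin 3, a basic helix-loop-helix (bHLH) factor that marks progenitor spermatogonia and, elsewhere, starts endocrine differentiation in the pancreas. It stood at 6.94 RPKM in mutant and 1.40 RPKM in control, about 529 and 106 reads, a ratio of 4.94 (interval 4.01 to 6.15). Sox3, an X-linked gene of the SOXB1 group that is needed for spermatogonia to progress in mice, stood at 11.3 RPKM in mutant and 3.47 RPKM in control, a ratio of 3.26 (2.89 to 3.67). Both genes were therefore among the lower-expressed of the 7 in control cells. Their counting intervals did not overlap between genotypes, but neither did those of any other of the 7. Even Glis3 had 41.1 to 42.3 RPKM in mutant against 39.5 to 40.7 RPKM in control. The share of all genes without overlap was not computed, so nothing is read from this.

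Upp1 and Zbtb16 were higher in the mutant at higher levels. Upp1 encodes uridine phosphorylase 1, which splits uridine into uracil and ribose 1-phosphate, and it stood at 20.8 RPKM in mutant and 7.07 RPKM in control, a ratio of 2.94 (2.63 to 3.29). Zbtb16 encodes PLZF, a BTB zinc finger repressor needed to maintain spermatogonial stem and progenitor cells, and it stood at 53.7 RPKM in mutant and 24.4 RPKM in control, a ratio of 2.20 (2.14 to 2.26). In absolute terms Zbtb16 had the largest difference of the 7 genes, at 29.3 RPKM.

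The other 3 genes differed by less. Taf4b, whose product is a germ cell enriched subunit of the general transcription factor TFIID, stood at 29.5 RPKM in mutant and 18.3 RPKM in control, a ratio of 1.61 (1.55 to 1.67). Nefm, the medium neurofilament chain, stood at 5.79 RPKM in mutant and 4.59 RPKM in control, a ratio of 1.26 (1.15 to 1.38). Glis3 encodes a Krüppel-like zinc finger factor that is needed in mice for postnatal spermatogonia to form. It stood at 41.7 RPKM in mutant and 40.1 RPKM in control, a ratio of 1.04 (1.02 to 1.06).

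**Figure D1:**
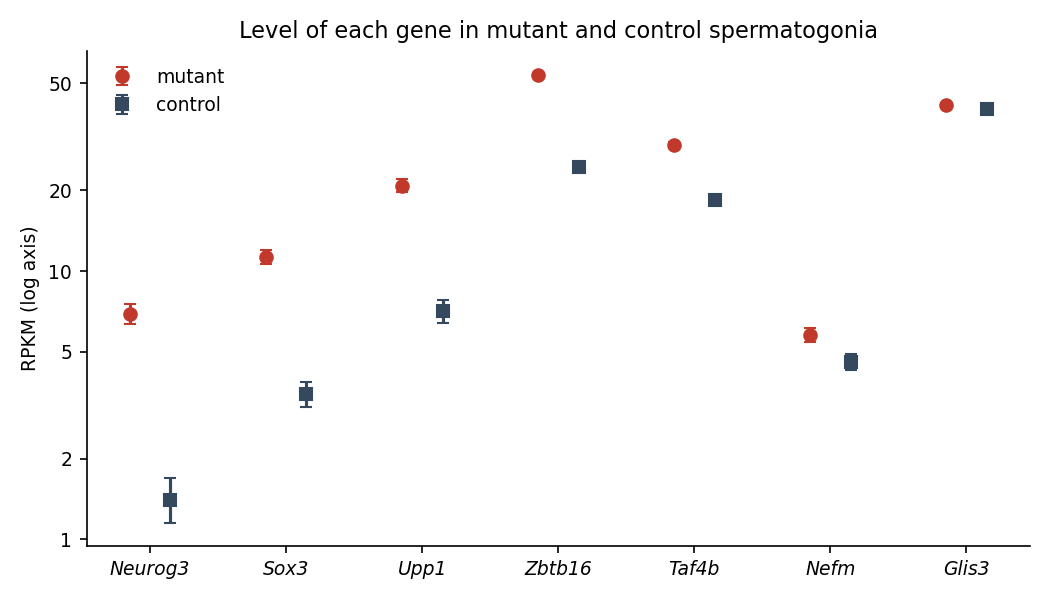
RPKM of each gene on a log axis, with mutant as circles and control as squares. Bars are 95% Poisson intervals of the reads behind each combined value and cover counting error only. Neurog3, Sox3, Upp1 and Zbtb16 are separated by more than 2-fold, while the Glis3 values of 41.7 and 40.1 RPKM nearly coincide.

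RefSeq promoter windows were at hand for Neurog3, Upp1 and Glis3 and are shown for that reason. The first of these genes pairs a large difference with a low level, the second a large difference with a middle level, and the third had almost no difference. Each window is the stretch of 250 bases before the annotated start in GRCm38.p6, written 5' to 3' in the direction of transcription. They are chr10:62132840-62133089 (plus strand), chr11:9117853-9118102 (plus strand) and chr19:28680078-28680327 (minus strand). Capitals mark the E-box CAGCTG, a form of the element that bHLH factors bind, and the SOX-type element ACAAAG, on either strand.
Neurog3: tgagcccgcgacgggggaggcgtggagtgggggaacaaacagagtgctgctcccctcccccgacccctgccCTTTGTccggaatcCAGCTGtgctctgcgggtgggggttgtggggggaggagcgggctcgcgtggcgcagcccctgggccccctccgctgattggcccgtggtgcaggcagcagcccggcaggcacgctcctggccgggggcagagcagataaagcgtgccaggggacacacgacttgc
Upp1: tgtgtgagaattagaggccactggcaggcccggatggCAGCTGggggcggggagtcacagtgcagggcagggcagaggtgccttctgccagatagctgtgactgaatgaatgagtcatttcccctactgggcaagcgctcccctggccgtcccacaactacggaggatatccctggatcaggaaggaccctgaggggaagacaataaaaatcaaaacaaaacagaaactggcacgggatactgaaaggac
Glis3: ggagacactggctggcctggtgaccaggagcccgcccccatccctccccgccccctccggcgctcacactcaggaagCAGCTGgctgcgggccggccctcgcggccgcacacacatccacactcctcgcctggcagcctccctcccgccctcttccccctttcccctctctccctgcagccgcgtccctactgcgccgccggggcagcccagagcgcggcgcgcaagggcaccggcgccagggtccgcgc

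The E-box CAGCTG was in all 3 windows, at positions -165 for Neurog3, -213 for Upp1 and -173 for Glis3 from the annotated start, and in 13% of 32817 RefSeq windows of this length. It was thus present both in genes with a large difference and in Glis3. ACAAAG was found in the Neurog3 window alone of the 3, on the reverse strand at -179, and in 16.5% of all windows. AGGTCA and AGTTCA, forms of the element that a single retinoic acid receptor contacts, were in none of the 3, against 14% and 11.9% of all windows, and ACAATG was in none of the 3, against 10.7%. A match is a description of letters and not of binding. The Neurog3 and Glis3 windows were rich in G and C, at 71.2% and 75.6%, and the Upp1 window printed stood at 55.6%, against a median of 52.4% over all windows. RefSeq gives 2 more windows for Upp1, at 62.4% and 52.8%, with the E-box at -118 and -23. The window at 62.4% overlaps the printed one, and its E-box at -118 is the same bases as the printed one at -213. The window printed ends just before the start that the table gives.

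The order of levels differed little between genotypes. In mutant cells it ran, from high to low, Zbtb16, Glis3, Taf4b, Upp1, Sox3, Neurog3 and Nefm. In control cells Glis3 stood first and Zbtb16 second, Nefm stood above Sox3, and Neurog3 came last. The steps between Neurog3 and Nefm in mutant were small, at 6.94 and 5.79 RPKM, although their counting intervals (6.36 to 7.56 and 5.46 to 6.13 RPKM) did not overlap.

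On the scale log2(RPKM + 1), which keeps genes near 0 from giving extreme ratios and so understates the difference of low genes, the differences of mutant minus control were 1.72 for Neurog3, 1.46 for Sox3, 1.43 for Upp1, 1.11 for Zbtb16, 0.66 for Taf4b, 0.28 for Nefm and 0.06 for Glis3. A gene is called here when this difference reaches 1 in either direction, that is 2-fold. Of the 7 genes 4 were called higher and 0 lower. Among all 16473 genes that reached 1 RPKM in at least 1 genotype, 4.40% were called higher and 4.35% lower. Among the 12593 of these that are protein-coding, 1.32% were called higher and 4.02% lower. Scaling both columns to the same sum made the split 997 higher and 481 lower, against 724 and 716 here, and rescaling the mutant to germ cell identity genes made it 394 and 2720. The genes were chosen on these values, so nothing is read from the 4 of 7. The median difference was 0.005 over all tested genes and -0.06 over the protein-coding ones.

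**Figure D2:**
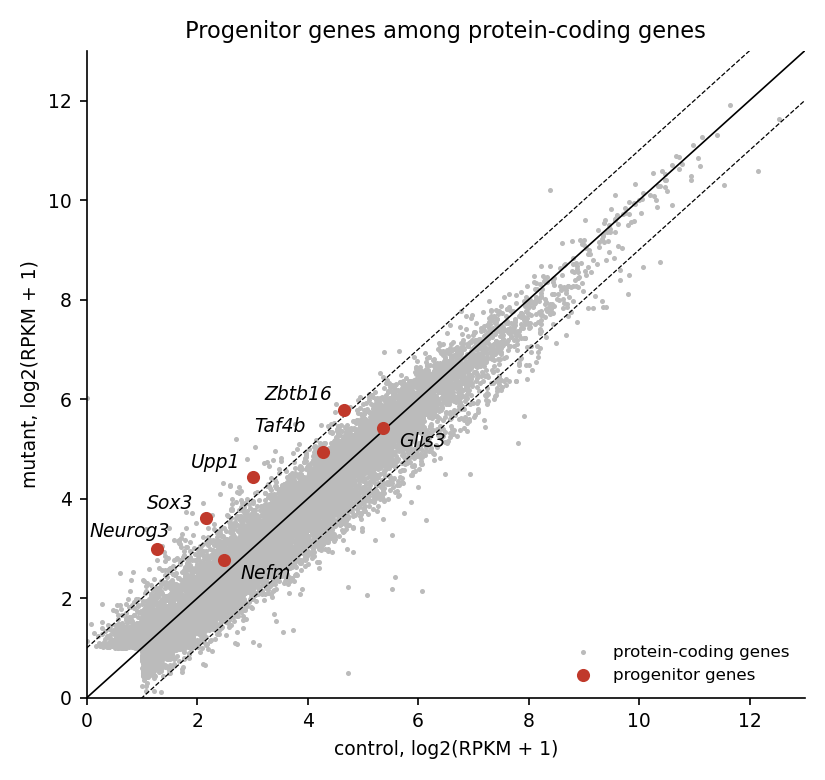
Each grey point is a protein-coding gene, at its control value on the horizontal axis and its mutant value on the vertical axis, both as log2(RPKM + 1). The solid line marks equal values and the dashed lines 2-fold, and Neurog3, Sox3, Upp1 and Zbtb16 lie above the upper dashed line while Taf4b, Nefm and Glis3 lie between the lines.

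Markers of germ cells and of other testis cells differed between genotypes as well, and their part in the values of the 7 genes was not tested. The summed RPKM of 21 germ cell identity genes was 1838 in mutant and 1294 in control, with 19 above 0, 0 called in either direction and a median log2 difference of 0.59. The highest of them was Dazl, an RNA-binding protein of germ cells, at 353 RPKM in mutant and 274 RPKM in control. Markers of several somatic cell types were lower in the mutant, those of endothelial cells being an exception. The summed RPKM of 15 macrophage genes was 1887 in mutant and 5093 in control, that of 8 Leydig cell genes 275 and 715, and that of 19 Sertoli cell genes 511 and 885. All 15 macrophage genes and all 8 Leydig cell genes lay below 0, with 14 and 6 called lower, as did 17 of the 19 Sertoli cell genes, with 4 called lower. Among tested genes Lyz2 led the macrophage list at 428 RPKM in mutant and 1339 RPKM in control, Hsd3b1 the Leydig list at 94.7 and 266 RPKM, and Clu the Sertoli list at 81.8 and 188 RPKM. The cells labelled THY1-positive spermatogonia thus held abundant RNA of germ cell genes and of somatic genes in both genotypes. Of the other lists, 8 of 9 mast cell genes, 2 of 7 peritubular myoid genes, 2 of 9 fibroblast genes, and 4 of 5 erythroid genes were called lower. Their most abundant tested genes were Mcpt2 (3.42 RPKM in mutant, 65.9 in control), Myl9 (31.8 and 69.9), Col1a2 (33.8 and 56.8) and Hbb-bs (33.8 and 224). Entries that pool several symbols were not tested and stood higher in some lists. They held Col3a1 of fibroblasts (504 RPKM in mutant, 1281 in control), Trf of Sertoli cells (124 and 283) and Egfl7 of endothelial cells (59.8 and 57.4). Of 11 endothelial genes 0 were called, 6 lay above 0 and 5 below, with a median of 0.13, or -0.34 under a rescaling to germ cell identity genes, and a summed RPKM of 38.9 in mutant and 40.3 in control. Cdh5, the most abundant of these 11 tested genes, stood at 7.38 RPKM in mutant and 8.62 RPKM in control. In bulk RNA, fewer cells of a type and less RNA per cell cannot be told apart.

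Set against Ddx4 or Dazl, every ratio was lower, because both of these genes were themselves higher in the mutant. The ratios of Nefm and Glis3 lay below 1. Ddx4 and Dazl each had a log2 difference of 0.36, below the median of 0.59 of the germ cell identity list. They thus lower the ratios less than a gene at that median would. Per RPKM of Ddx4, the germ cell RNA helicase at 114 RPKM in mutant and 88.6 RPKM in control, Neurog3 stood at 6.10% in mutant and 1.59% in control, a ratio of 3.85. The same ratio was 2.54 for Sox3, 2.29 for Upp1, 1.71 for Zbtb16, 1.25 for Taf4b, 0.981 for Nefm and 0.810 for Glis3. Taken per RPKM of Dazl the ratios were 3.84 for Neurog3, 2.53 for Sox3 and 1.71 for Zbtb16. When the mutant values were rescaled so that the germ cell identity list had a median of 0, Neurog3 alone was called, at 1.22, while Sox3 and Upp1 lay at 0.92 and 0.87, Zbtb16 at 0.52 and Taf4b at 0.09. Nefm and Glis3 then lay below 0, at -0.21 and -0.52. On that scale 1 of the 7 genes was past 2-fold, and the median of all tested genes was -0.52, so the family medians given below under this rescaling carry that shift.

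**Figure D3:**
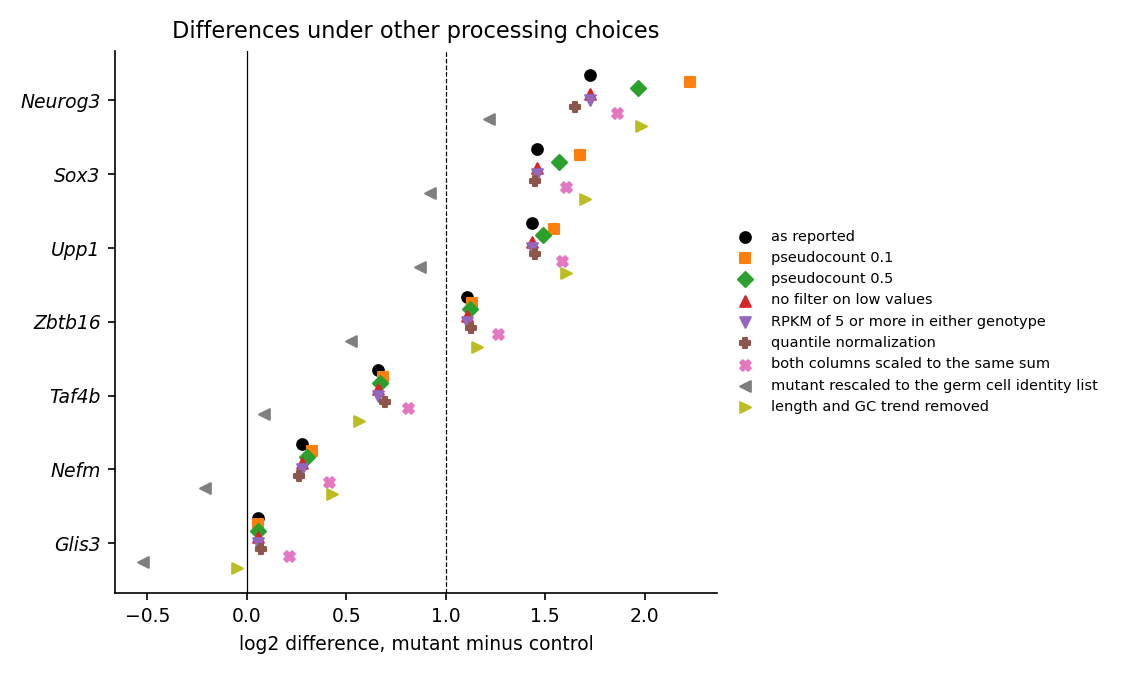
Log2 difference of mutant minus control for each gene as reported and under 8 other processing choices. The dashed line marks 2-fold; the rescaling to germ cell identity genes is the leftmost point of every gene, at 1.22 for Neurog3 and -0.52 for Glis3.

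Neurog3 and Sox3 each lie beside another transcribed gene. In GENCODE M21, on the GRCm38 build that the submitters' notes name, Neurog3 runs on the plus strand of chromosome 10 from 62133090 to 62134763, inside the span of 2010107G23Rik (Fam241b in GENCODE), which is transcribed from the other strand. The table gives both genes the same span, 62107655 to 62143920, but separate values. Of the 1674 exonic bases of Neurog3, 273 (16.3%), at its 3' end, are also exonic in 2010107G23Rik. That gene stood at 17.6 RPKM in mutant and 13 RPKM in control, a ratio of 1.36 (1.26 to 1.47), against 4.94 for Neurog3. Use of strand in counting is not known from these sources, so reads in the shared bases cannot be told apart.

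Sox3 is a single-exon gene on the minus strand of chromosome X, from 60891366 to 60893430. The antisense RNA gene Gm14662 begins 222 bases away on the plus strand and runs away from it. Gm14662 stood at 2.13 RPKM in mutant and 0.236 RPKM in control, about 64 and 7 reads, a ratio of 9.03 (4.14 to 23.4). It shares no exonic base with Sox3. Like Sox3 it was higher in the mutant, at a much lower level, and it was named after its values were seen.

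**Figure D4:**
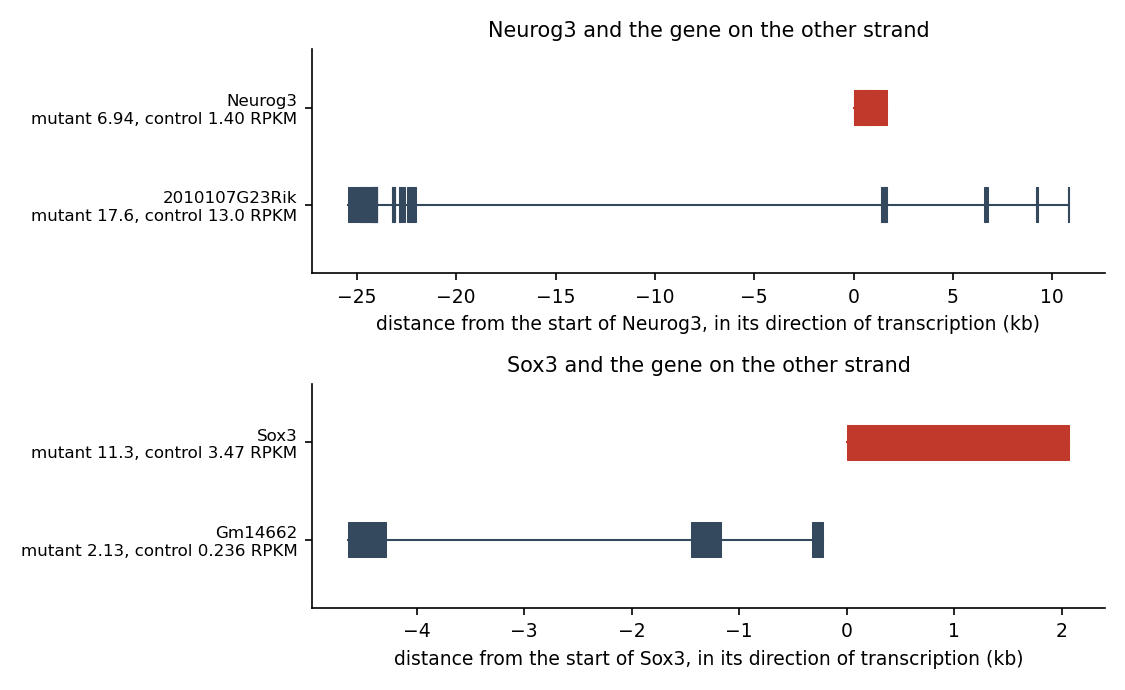
Exons of Neurog3 and 2010107G23Rik, and of Sox3 and Gm14662, as boxes along the distance in kb from the start of Neurog3 or Sox3, with RPKM values at the left. Boxes join the exons of all annotated transcripts; an exon of 2010107G23Rik overlaps the 3' end of Neurog3, and Gm14662 lies upstream of Sox3 with no overlap.

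The remaining entries are given in less detail. Upp1 (chromosome 11, 9118103 to 9136170, plus strand) had the same start and end in the table and in GENCODE. Zbtb16 runs on the minus strand of chromosome 9, from 48654311 to 48835945 in the table and from 48654297 to 48836222 in GENCODE. Taf4b runs on the plus strand of chromosome 18, from 14783245 to 14900359. Exon overlap of Upp1, Zbtb16 and Taf4b with other genes was not examined. Nefm (chromosome 14, 68082590 to 68124846, minus strand) shares 1108 of its 5782 exonic bases with Nefl on the other strand, which stood at only 0.316 RPKM in mutant and 0.356 RPKM in control. Glis3 (chromosome 19, minus strand, 28258851 to 28680077 in GENCODE) shares no exonic base with the 2 noncoding genes placed in its span.

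The related genes of each of the 7 are given beside it. Because the 7 genes were chosen on these values, nothing is read from their rank among their relatives. Among 18 proneural and related bHLH genes, 3 passed the RPKM filter, and Neurog3 was the 1 called. Neurog1 and Neurog2, the other neurogenins, stood below 0.03 RPKM in both genotypes. Atoh8 stood at 5.56 RPKM in mutant and 3.84 RPKM in control and Ascl2 at 1.59 and 3.64 RPKM. Neurod1, a target of NEUROG3 in the pancreas, shares an entry with another symbol and was not counted.

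The dimer partners and inhibitors of bHLH factors did not all lie on the same side of 0. The E-protein genes Tcf12 and Tcf3, whose products pair with neurogenins, stood at 71.4 and 70.7 RPKM in mutant against 54.0 and 54.2 RPKM in control, and Tcf4 at 31.3 and 27.8 RPKM. Id2, whose product blocks E-proteins, stood at 27.0 RPKM in mutant and 53.6 RPKM in control, a log2 difference of -0.96. Id1 (5.81 RPKM in mutant, 11 in control), Id3 (11.5 and 20.01) and the repressor gene Hes1 (15.2 and 28.9) also had lower mutant values, while Id4 stood at 26.7 RPKM in mutant and 18.5 RPKM in control. None of the 9 genes was called, and the list median was 0.17, which was -0.12 with the trend in length and GC content removed and -0.41 under the germ cell rescaling. Somatic cells express Id1, Id2, Id3 and Hes1 too, and their markers were lower in the same values; their part in these differences was not tested.

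In the Sox family 13 of 19 genes passed the filter, and Sox3 was the 1 called, at a difference of 1.46. The other 12 had a median of 0.20 and a maximum of 0.75. The median of all 13 was 0.28, or -0.24 under the germ cell rescaling. The closest relatives of Sox3 were nearly silent, with Sox1 at 0.0416 RPKM in mutant and 0.0344 RPKM in control and Sox2 at 0.257 and 0.664 RPKM. Sox4, the most abundant member, stood at 46.1 RPKM in mutant and 34.2 RPKM in control, and Sox13 at 15.2 and 16 RPKM, and Sox12 at 9.17 and 7.37 RPKM. Sox8 and Sox9, which Sertoli cells express, stood at 3.73 and 1.10 RPKM in mutant against 7.74 and 2.19 RPKM in control. Sox9 is itself one of the Sertoli cell genes counted above, and the part of Sertoli cells in these values was not tested.

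In the BTB zinc finger family 34 of 38 genes were tested, with Zbtb16 called higher and Zbtb7b called lower. Zbtb7b, which encodes ThPOK, a factor of CD4 T cells, stood at 4.40 RPKM in mutant and 11.2 RPKM in control. The 33 genes other than Zbtb16 had a median difference of 0.21, with 24 above 0. The median of all 34 was -0.31 under the germ cell rescaling. Zbtb18 stood at 35.4 RPKM in mutant and 23.8 RPKM in control, Zbtb43 at 31.1 and 26.6 RPKM, Zbtb44 at 31.4 and 25.9 RPKM, and Zbtb25 at 21.8 and 15.3 RPKM. Zbtb32, whose product binds PLZF, stood at 17.5 RPKM in mutant and 12.8 RPKM in control, while Bcl6b, a GDNF-responsive gene of stem spermatogonia, stood at 10.2 and 21.3 RPKM. Neither was called, with Bcl6b at -0.99 on the log2(RPKM + 1) scale, although its RPKM values were 2.08-fold apart.

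Genes reported as partners or targets of PLZF split in direction. Of 12 tested, Dnmt3l was called higher and Sall4 and Kit were called lower, with a list median of 0.43 that was -0.14 under the germ cell rescaling. Dnmt3l, a cofactor of DNA methylation in prospermatogonia, stood at 4.19 RPKM in mutant and 0.738 RPKM in control, a ratio of 5.68. Kit, the receptor tyrosine kinase of differentiating spermatogonia that PLZF represses, stood at 9.65 RPKM in mutant and 27.3 RPKM in control. Sall4, a zinc finger factor that binds PLZF, stood at 30.3 RPKM in mutant and 72.3 RPKM in control, so Zbtb16 and Sall4 differed in opposite directions. Sohlh1 stood at 60.6 RPKM in mutant and 37.2 RPKM in control, Bmi1 at 58.7 and 36.5 RPKM, Ncor1 at 102 and 86.1 RPKM and Hdac2 at 100.3 and 79.2 RPKM. Mast cells also carry Kit, and 8 of their 9 marker genes were called lower, with a median of -2.51; the part of these cells in the Kit value was not tested.

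Glis3 was the most abundant of its relatives. Of 12 GLIS, GLI and ZIC genes 6 passed the filter and 0 were called, with a median of -0.11 that was 0.04 after scaling both columns to the same sum. Glis2 stood at 9.76 RPKM in mutant and 12 RPKM in control, Gli3 at 9.51 and 8.23 RPKM, Sufu, an inhibitor of GLI factors, at 4.96 and 7.13 RPKM, and Gli1 at 1.76 and 2.52 RPKM. All 4 lay well below Glis3 at 41.7 and 40.1 RPKM.

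In the family of Taf4b most members had higher mutant values as deposited. Of 18 tested TFIID and TBP-related genes 14 lay above 0, none was called in either direction, and the median was 0.27, or 0.25 over the 17 without Taf4b. Rescaling to germ cell identity genes gave a median of -0.27. Taf7l, the germ cell paralog of Taf7, stood at 207 RPKM in mutant and 124 RPKM in control, a difference of 0.73 that exceeded the 0.66 of Taf4b. Taf9b, at 51.0 and 31.5 RPKM, had a difference of 0.68, and Taf4a, the ubiquitous paralog of Taf4b, stood at 11.8 RPKM in mutant and 7.52 RPKM in control, a difference of 0.59. Taf7 stood at 76.4 and 52.1 RPKM, while Taf10 stood at 103 and 134 RPKM and Taf6l at 57.2 and 62.5 RPKM. Taf4b was the more abundant of the paralogs in both genotypes.

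Upp1 was the 1 called of 17 tested genes of pyrimidine salvage and breakdown, and the other 16 had a median of -0.23 and a maximum of 0.27. Upp2, its paralog, stood at 1.12 RPKM in mutant and 1.81 RPKM in control. Uck2, a uridine kinase, stood at 52.3 RPKM in mutant and 45.4 RPKM in control, Cmpk1 at 55.6 and 61.8 RPKM, Dtymk at 45.7 and 50.5 RPKM and the thymidylate synthase gene Tyms at 64.8 and 102 RPKM. The 5 genes of pyrimidine synthesis included 0 called and had a median of -0.06, or 0.09 with both columns scaled to the same sum, with Cad at 89.8 RPKM in mutant and 82.7 RPKM in control, Ctps at 78.8 and 80.6 RPKM, Ctps2 at 34.9 and 46.4 RPKM and Umps at 19.9 and 26.5 RPKM.

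Nefm stood at a higher level than its usual assembly partner. Nefl, the light chain on which neurofilaments are built, stood at 0.316 RPKM in mutant and 0.356 RPKM in control, against 5.79 and 4.59 RPKM for Nefm. Nefh, the heavy chain, stood at 5.94 RPKM in mutant and 5.93 RPKM in control, and Ina, encoding internexin, at 3.40 and 2.53 RPKM. Of 13 tested intermediate filament genes Lmna was called lower, at 15.6 RPKM in mutant and 32.4 RPKM in control, and the list median was 0.002. Lmna was no longer called under quantile normalization (-0.97), equal column sums (-0.86) or removal of the length and GC trend (-0.85), and the list median ran between -0.50 under the germ cell rescaling and 0.15 with that trend removed. Vim, the abundant filament gene of somatic cells, stood at 181 RPKM in mutant and 349 RPKM in control, Lmnb1 at 36.7 and 48.4 RPKM, Nes at 11.5 and 8.35 RPKM, and Lmnb2 at 8.54 and 10.5 RPKM. Neuronal and glial markers were low: 8 of 15 passed the filter, 0 were called, and their summed RPKM was 21.5 in mutant and 26.9 in control, with Map2 highest at 5.01 and 7.90 RPKM.

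**Figure D5:**
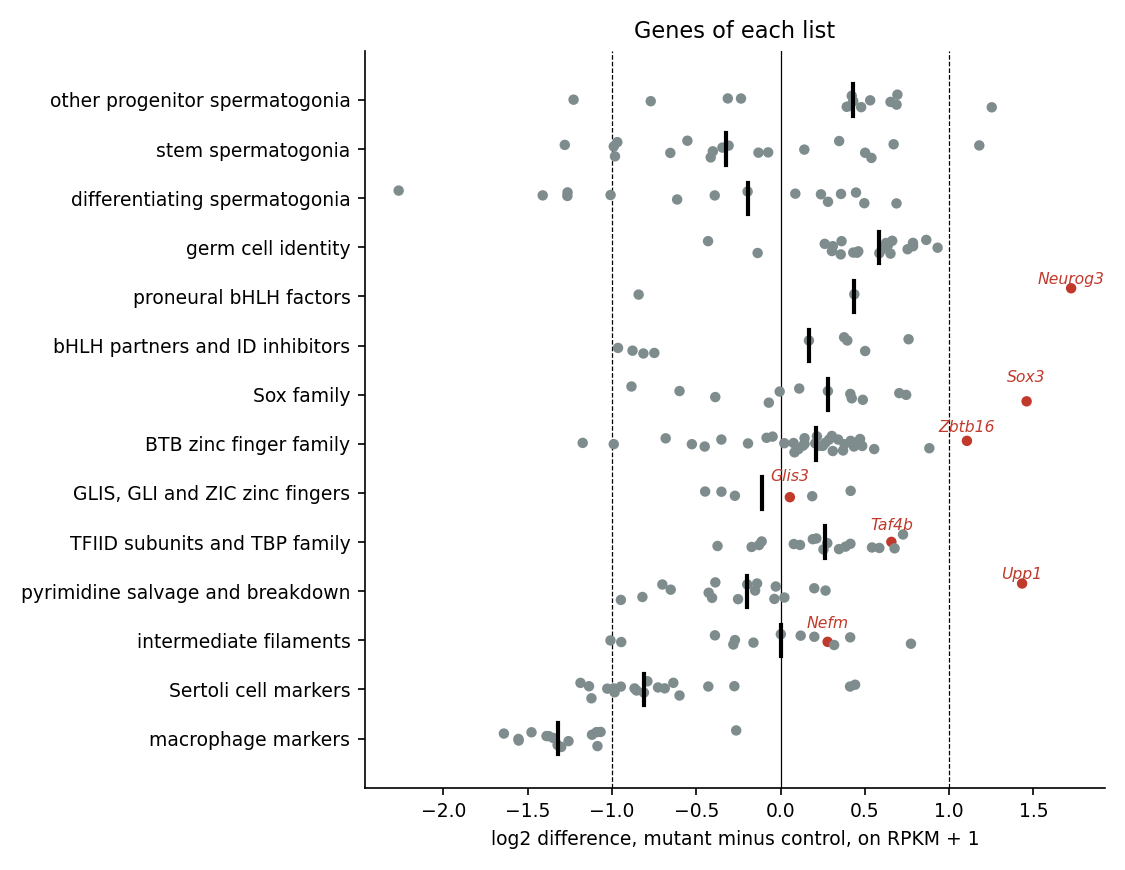
Each point is a tested gene at its log2 difference, mutant minus control, on RPKM + 1, with a row per list, a black bar at the list median and dashed lines at 2-fold. Neurog3, Sox3, Zbtb16 and Upp1 (red) lie to the right of every tested relative in their rows, while Glis3, Taf4b and Nefm lie among theirs. The red genes were chosen with these values known, so nothing is read from their places. In the proneural bHLH row only 2 relatives of Neurog3 were tested. Macrophage and Sertoli cell markers lie mostly below 0.

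Further genes of progenitor spermatogonia did not all share the direction. Of 14 tested, 10 lay above 0 and 4 below, with a median of 0.43 that turned to -0.15 after rescaling to germ cell identity genes; 1 was called higher and 1 lower. The higher one was Rarg, the gene of retinoic acid receptor gamma, at 13.8 RPKM in mutant and 5.22 RPKM in control, and the lower one was Sall4. Under the germ cell rescaling Rarg lay at 0.71 and was not called. Sohlh2, a bHLH factor needed for differentiation, stood at 50.5 RPKM in mutant and 30.8 RPKM in control, and Dmrt1 at 124 and 93.0 RPKM. Sertoli cells also express Dmrt1. Cdh1, at 3.16 RPKM in mutant and 6.10 RPKM in control, Ccnd1 and Lin28a had lower mutant values and were within 2-fold.

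The gene lists for the states before and after the progenitor step had lower medians than the progenitor list. Markers of several somatic cell types were also lower in the mutant. Their medians were -1.32 for macrophage and -0.81 for Sertoli cell genes, against 0.13 for endothelial genes. The part of somatic cells in the medians of the stem and differentiating lists was not tested. Of 18 stem spermatogonia genes tested, 12 lay below 0, with a median of -0.33. Gfra1 was called lower, at 14.2 RPKM in mutant and 35.9 RPKM in control, and Piwil4, a PIWI protein of neonatal germ cells, was called higher, at 14.7 and 5.94 RPKM. Under the germ cell rescaling Piwil4 lay at 0.63 and was not called, and the list median was -0.71, against -0.18 with equal column sums. Of 15 differentiating spermatogonia genes 7 lay above 0 and 8 below, with a median of -0.20. That median was 0.02 with the trend in transcript length and GC content removed and -0.46 under the germ cell rescaling. Of these 15 genes 5 were called lower and 0 higher. Besides Kit these were Stra8, at 8.60 RPKM in mutant and 45.2 RPKM in control, Ccnd2, Ddit4l and Cyp26a1. Cyp26a1, at 0.409 RPKM in mutant and 1.84 RPKM in control, was not called with equal column sums (-0.96) or with that trend removed (-0.81), and was not tested at an RPKM minimum of 5.

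The protein-coding genes closest to each of the 7 in both values, by distance on the log2(RPKM + 1) scale over the 2 genotypes, are given with 3 for each. Nearest to Neurog3 were Fgd5, at 7.01 RPKM in mutant and 1.45 RPKM in control, Spocd1, at 7.24 and 1.57 RPKM, and Magea3. Nearest to Sox3 were Kcnj13, Pou4f1 and Fras1, and nearest to Zbtb16 were Tle1, Ccdc141 and Pmaip1. The closest gene to Upp1 was Zfp711, at a distance of 0.30, with Slc41a2 and Zfp229 next. For Glis3 these were Smc1a, at a distance of 0.0056, Ctdspl2 and Smc2, for Taf4b Rc3h2, Fzd3 and Sycp2, and for Nefm Mocs3, Gm10518 and Rdh10. With 2 values per gene this likeness says nothing beyond the values themselves.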

How the data were processed

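RNA of THY1-positive spermatogonia was sequenced in 4 libraries, 2 mutant and 2 control. Alignment software and build appear in the submitters' processing notes as TopHat2 2.0.11 and GRCm38. No source used here names the counting program, the gene annotation or the use of strand. The authors deposited RPKM values, 1 column for both mutant libraries together and 1 for both control libraries, per the file headers, so no model over single libraries was fitted. Members and lists were chosen with earlier results of these data known.

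Differences are log2(RPKM + 1) in mutant minus the same in control, called at 2-fold. Tested genes reached 1 RPKM in at least 1 genotype and had an entry of their own, which left out 981 entries that pool several symbols. A repeated symbol was used once, at its highest mean. Of 16473 tested genes 15905 matched GENCODE M21, by symbol or by a RefSeq synonym, for biotype, length and GC content.

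Depth came from single-transcript genes of 1000 nt or longer: RPKM times length less 210 nt stepped in whole reads, within 0.1 read for 94.7% of 887 mutant and 89.3% of 869 control values up to 10 reads. Reads behind a gene used its longest protein-coding transcript. Read intervals are exact Poisson, and ratio intervals Clopper-Pearson. The step search and the 2-fold count were tested on simulated data. Alternatives were pseudocounts of 0.1 and 0.5, no filter or an RPKM of 5, quantile normalization, equal column sums, rescaling to germ cell identity genes, and removal of the length and GC trend by lowess (span 0.3). Python 3.11.15, scipy 1.17.1 and statsmodels 0.14.6 were used.

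Genes named were the 7 genes, called genes of the lists, up to 4 further genes per related list by mean RPKM, the 3 nearest genes of each of the 7, Kit, Stra8, and the top tested gene of each somatic, germ cell and neuronal list. Neighbouring genes (2010107G23Rik, Nefl, Gm14662), Id1, Id3, Id4, Hes1, Neurog1, Neurog2, Sox1, Sox2, Sox9, Zbtb32, Bcl6b, Upp2, Taf4a, Taf9b, Nefh, Ina and Ddx4 were named after their values were seen, as were Cdh1, Ccnd1, Lin28a, Dmrt1 and Sohlh2. A list of pancreatic target genes is not reported here.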

Additional observations from a re-analysis of the deposited data

How the results depend on the processing

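The 4 genes called higher (Neurog3, Sox3, Upp1, Zbtb16) were called under 7 of the 8 alternatives. Several of these 7 could not remove a call. Both changes of the RPKM filter left the values of the 4 genes as they were. A smaller pseudocount can only enlarge a difference above 0, and equal column sums raised all mutant values, by a factor of 1.12. Quantile normalization and removal of the length and GC trend could have removed a call and kept all 4. Rescaling to germ cell identity genes kept 1, that of Neurog3. That rescaling moved the median of all tested genes to -0.52, and equal column sums moved it to 0.15. Over the alternatives the log2 difference ran from 1.22 to 2.23 for Neurog3, 0.92 to 1.70 for Sox3, 0.87 to 1.61 for Upp1, 0.52 to 1.26 for Zbtb16, 0.09 to 0.81 for Taf4b, -0.21 to 0.43 for Nefm and -0.52 to 0.21 for Glis3. Glis3 also lay below 0 with the length and GC trend removed, at -0.05. Called genes in the whole table were 724 higher and 716 lower, 1417 and 1107 at pseudocount 0.1, 394 and 2720 under the germ cell rescaling, and 997 and 481 with equal column sums. Over the family and pathway lists, the 7 genes aside, 3 were called higher and 9 lower as reported, 6 and 16 at pseudocount 0.1, 1 and 27 under the germ cell rescaling, and 6 and 7 with equal column sums. No paired analysis was possible because the columns hold both libraries of a genotype combined, and for the same reason no library could be left out. Neurog3 in control rests on about 106 reads, the fewest behind a value of the 7 genes.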
